A study of Mus musculus with 9 samples.

Results

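The genes described here are 50 mouse genes of the Wnt pathway at the cell surface: 17 Wnt ligands, 10 Frizzled receptors, 5 co-receptors and alternative receptors, 7 R-spondins and LGR receptors, 8 secreted antagonists, and 3 feedback inhibitors. They were taken by symbol from a fixed list, and all 50 were found among the 27179 genes of the count table. The series measured RNA in 3 populations of luminal cells sorted from the mammary glands of adult mice, with 3 libraries each. All populations were depleted of lineage-positive cells and came from mice with PR-cre, a Cre recombinase tied to the progesterone receptor gene, and a YFP reporter. The first is ML, which the labels give as CD14 negative and YFP positive. The second is HR-positive LP (HR+ LP in the labels), which is CD14 positive and YFP positive. The third is HR-negative LP (HR- LP), which is CD14 positive and YFP negative. The labels do not spell out HR, LP or ML, and they give neither the strain nor the number of animals. The design text of the series calls ML YFP negative; the sample labels were followed. Cre reporters mark cells in which Cre has acted and their descendants, so YFP does not show that a cell made progesterone receptor when it was sorted. Because the labels do not say that libraries of a population came from separate animals, p-values measure only the spread between these libraries, which may be technical.

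Wnt proteins are secreted lipid-modified ligands that bind Frizzled receptors. With the co-receptors LRP5 and LRP6 they stabilise beta-catenin, which then acts with TCF and LEF factors in the nucleus, whereas with ROR1, ROR2 or RYK they act through branches that do not need beta-catenin. The ubiquitin ligases RNF43 and ZNRF3 remove Frizzled receptors from the membrane, and R-spondins, bound by the LGR receptors, counteract them. SFRP proteins, DKK proteins and WIF1 are secreted antagonists. In the mouse mammary gland, Wnt4 is known as a ligand induced by progesterone in hormone-receptor-positive luminal cells, and R-spondin 1 as a factor that acts with it on stem and progenitor cells.

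The libraries held between 27219103 and 108119756 counts, with counts for between 15239 and 17735 genes. HR-negative LP replicate 3 stood apart from the other libraries on the second principal component. Levels are counts scaled to library size with edgeR's TMM factors and given as CPM. Cd14, on which the sort rests, had 30.3, 18.3 and 25.4 CPM in ML and 284, 348 and 340 CPM in HR-positive LP, against 1167, 1180 and 996 CPM in HR-negative LP. Pgr, the progesterone receptor gene, had 276, 557 and 471 CPM in ML and 204, 329 and 303 CPM in HR-positive LP, against 6.32, 15.8 and 6.12 CPM in HR-negative LP; HR-negative LP replicate 2 was the highest of its population. All 10 luminal progenitor markers were called lower in HR-positive LP relative to HR-negative LP, and 8 of 9 hormone-sensing markers were called higher; Tnfsf11 was not tested, with a count in only 1 library. The 7 pan-luminal markers summed to between 13378 and 16545 CPM in ML, between 13036 and 17450 CPM in HR-positive LP, and between 14958 and 17133 CPM in HR-negative LP.

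One set of ligands and receptors was lower in HR-negative LP relative to both other populations, and another set was higher there. Wnt4, Wnt5a, Wnt7b, Wnt11, Fzd4, Fzd6, Fzd10 and Ror2 were higher in HR-positive LP relative to HR-negative LP, by between 1.46-fold and 67.6-fold. Wnt5b, Fzd1, Fzd5, Fzd8, Ror1, Lgr4, Lgr5, Lgr6, Sfrp1, Sfrp2 and Rnf43 were lower, at between 20.6% and 62% of the HR-negative LP mean. Over the 17 ligands, levels per kb of gene length were between 121 and 143 CPM per kb in ML and between 133 and 151 in HR-positive LP, against between 86.1 and 140 in HR-negative LP. For the 10 Frizzled receptors the sums were between 63.9 and 75.8 CPM per kb in ML and between 66.2 and 67.1 in HR-positive LP, against between 54.7 and 61.6 in HR-negative LP. Without division by length the order of the Frizzled sums changed, with between 264 and 298 CPM in ML and between 285 and 291 CPM in HR-positive LP, against between 293 and 316 CPM in HR-negative LP. The ligand sums were then apart, with between 485 and 570 CPM in ML and between 469 and 544 CPM in HR-positive LP, against between 228 and 353 CPM in HR-negative LP. In bulk samples such as these, fewer cells of a type and less RNA per cell cannot be told apart.

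A filter kept genes with about 10 counts at the median library depth, here 0.197 CPM, in 3 libraries and 15 counts in total. It passed 33 of the 50 members. Of these, 22 reached the cutoff in every library of 3 populations, 10 in every library of 2 and 1 in every library of 1, so for these 11 the filter itself favours genes that differ. Exons of Axin2, Fzd5, Fzd6, Sfrp2, Wnt5a, Wnt7b and Wnt11 overlap those of a gene on the opposite strand, and the libraries do not mark strand, so the counts of these genes are uncertain. In HR-positive LP over HR-negative LP, 8 of the 33 were called higher and 11 lower at an adjusted p below 0.05, where 29.9% of the 15910 tested genes were called, 17.2% higher and 12.8% lower. With library totals in place of TMM, 3182 genes were higher and 1535 lower in that comparison, against 2731 and 2033 with TMM. In ML over HR-positive LP, 11 members were lower, where 6.79% of genes were called, 0.0943% higher and 6.7% lower. Those 0.0943% were 15 genes, and 71 genes were higher with the replicate number as a block. No member was called higher there by edgeR, DESeq2 or limma voom, and 0 had an unadjusted p below 0.05 with a higher level in ML. In ML over HR-negative LP, 9 were higher and 17 lower, where 44.6% of genes were called, 23.3% higher and 21.3% lower.

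The median log2 fold change over the 33 tested members was -0.69 in HR-positive LP over HR-negative LP, -0.30 in ML over HR-positive LP and -0.63 in ML over HR-negative LP. Over all tested genes it was 0.01, 0.01 and 0.03. No member was called higher, or lower, in HR-positive LP than in both other populations by edgeR, DESeq2 or limma voom, and 0 were at an unadjusted p below 0.05. Each pair of comparisons shares the libraries of a population, so their calls are not independent and stand side by side below. Leaving out HR-positive LP replicate 2 brought the count of lower members in HR-positive LP over HR-negative LP to 6. Leaving out HR-positive LP replicate 3 brought it to 7, as did leaving out HR-negative LP replicate 2. The count of lower members in ML over HR-positive LP was 7 without ML replicate 2. Without HR-negative LP replicate 3, the library that stood apart, the counts in HR-positive LP over HR-negative LP were 8 higher and 10 lower.

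**Figure D1:**
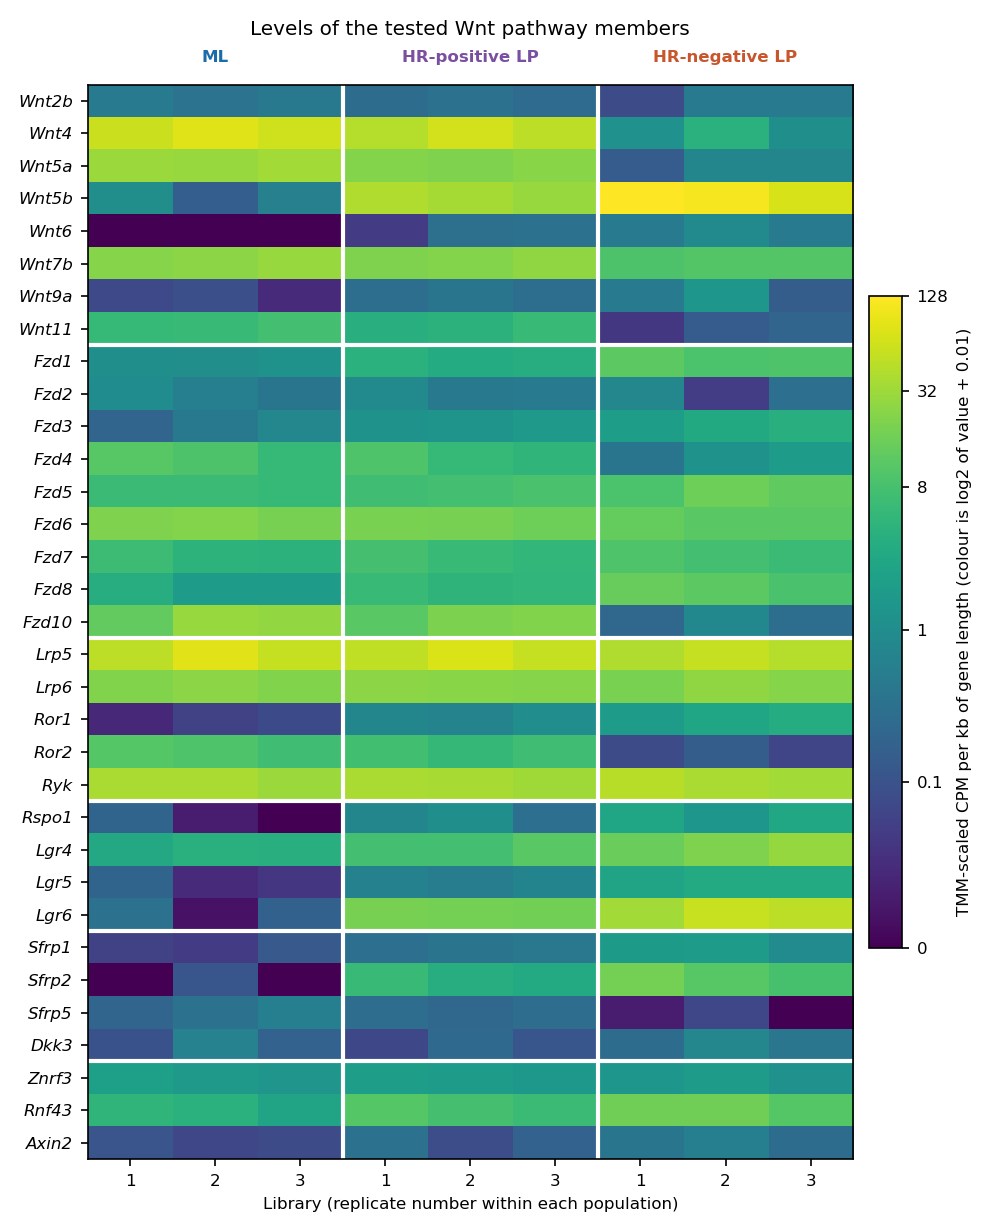
Level of each of the 33 tested members in each of the 9 libraries, as TMM-scaled CPM per kb of gene length (colour, log2 of the value plus 0.01). Rows are grouped by role, and columns run from ML through HR-positive LP to HR-negative LP. Wnt4, Wnt5a, Wnt11, Fzd10 and Ror2 are brighter in every ML and HR-positive LP library than in any HR-negative LP library. Wnt5b, Lgr6 and Sfrp2 are brightest in HR-negative LP.

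The start regions of 7 members follow, as examples of ligands and receptors from both sets: Wnt4, Wnt11, Fzd10 and Ror2 from the set that was higher in ML and HR-positive LP, and Wnt5b, Fzd1 and Ror1 from the set that was lower. They were chosen with their motif matches known: Wnt11, Wnt5b, Fzd1 and Ror1 are the members of the 2 sets with a match to the first motif below. Each window runs from 250 bases before to 50 bases after an annotated start, from RefSeq on GRCm38.p6, and 34 of the 50 members had at least 1 window, which Wnt5a did not. The letters TCAAAG, a core of the site bound by TCF and LEF factors, and CTTTGA, their reverse complement, are in capitals. Wnt4 (NCBI gene 22417, chr4:137277635-137299501) is shown over chr4:137277385-137277684 on the plus strand. Wnt11 (NCBI gene 22411, chr7:98835084-98854747) had 2 windows, and the one with a match is shown, over chr7:98834862-98835161 on the plus strand. Fzd10 (NCBI gene 93897, chr5:128601106-128604093) is shown over chr5:128600856-128601155 on the plus strand. Ror2 (NCBI gene 26564, chr13:53109317-53286124) is shown over chr13:53286075-53286374 on the minus strand. Wnt5b (NCBI gene 22419, chr6:119432531-119544824) had 3 windows, and the one with a match is shown, over chr6:119449337-119449636 on the minus strand. Fzd1 (NCBI gene 14362, chr5:4753839-4758216) is shown over chr5:4758167-4758466 on the minus strand. Ror1 (NCBI gene 26563, chr4:100095791-100444806) is shown over chr4:100095541-100095840 on the plus strand.
Wnt4: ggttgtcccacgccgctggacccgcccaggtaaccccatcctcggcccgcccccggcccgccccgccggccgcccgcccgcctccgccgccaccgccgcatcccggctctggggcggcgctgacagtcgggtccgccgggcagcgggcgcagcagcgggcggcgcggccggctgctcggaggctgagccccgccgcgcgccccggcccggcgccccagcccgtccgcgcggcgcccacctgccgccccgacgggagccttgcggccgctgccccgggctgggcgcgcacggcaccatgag
Wnt11: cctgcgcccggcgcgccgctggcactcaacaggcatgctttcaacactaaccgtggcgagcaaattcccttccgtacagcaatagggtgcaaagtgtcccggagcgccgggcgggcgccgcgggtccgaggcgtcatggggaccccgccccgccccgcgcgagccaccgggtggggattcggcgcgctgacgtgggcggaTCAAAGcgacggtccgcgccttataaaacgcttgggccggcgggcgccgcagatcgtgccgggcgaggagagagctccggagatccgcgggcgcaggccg
Fzd10: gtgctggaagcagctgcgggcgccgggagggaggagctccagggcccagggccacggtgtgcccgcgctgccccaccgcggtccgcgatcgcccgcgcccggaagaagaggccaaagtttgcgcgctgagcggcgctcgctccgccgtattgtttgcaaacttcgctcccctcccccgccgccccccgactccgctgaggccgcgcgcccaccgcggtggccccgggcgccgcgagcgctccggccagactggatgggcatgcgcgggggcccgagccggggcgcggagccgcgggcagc
Ror2: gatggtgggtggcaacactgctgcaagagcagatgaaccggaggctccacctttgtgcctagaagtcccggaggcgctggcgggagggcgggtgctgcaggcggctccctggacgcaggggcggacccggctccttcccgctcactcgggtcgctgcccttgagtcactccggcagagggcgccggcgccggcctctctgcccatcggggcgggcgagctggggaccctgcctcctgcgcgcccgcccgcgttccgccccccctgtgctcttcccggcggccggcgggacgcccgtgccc
Wnt5b: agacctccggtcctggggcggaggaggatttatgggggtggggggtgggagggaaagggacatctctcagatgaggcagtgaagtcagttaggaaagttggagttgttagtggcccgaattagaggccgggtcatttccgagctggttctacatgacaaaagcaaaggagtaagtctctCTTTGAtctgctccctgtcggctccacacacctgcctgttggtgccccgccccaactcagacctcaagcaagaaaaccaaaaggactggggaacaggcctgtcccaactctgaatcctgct
Fzd1: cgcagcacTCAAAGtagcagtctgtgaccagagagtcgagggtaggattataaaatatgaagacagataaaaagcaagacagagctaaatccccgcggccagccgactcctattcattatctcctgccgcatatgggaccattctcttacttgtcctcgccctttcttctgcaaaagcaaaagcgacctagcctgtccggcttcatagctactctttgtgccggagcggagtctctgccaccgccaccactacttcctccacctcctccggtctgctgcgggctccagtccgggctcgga
Ror1: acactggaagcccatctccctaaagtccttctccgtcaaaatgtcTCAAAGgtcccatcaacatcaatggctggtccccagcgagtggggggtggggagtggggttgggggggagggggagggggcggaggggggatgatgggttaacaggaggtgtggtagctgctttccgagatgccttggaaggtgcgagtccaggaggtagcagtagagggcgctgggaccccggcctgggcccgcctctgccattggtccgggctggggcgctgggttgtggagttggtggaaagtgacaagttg

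The match starts at base 201 in Wnt11, base 180 in Wnt5b, base 9 in Fzd1 and base 46 in Ror1, counted from 1 at the 5′ end. On either strand, TCAAAG was in 5 of the 38 windows of members and in 16.0% of all 32851 windows. Of the windows of members higher in ML relative to HR-negative LP it was in 1 of 7, and of those lower in ML in 3 of 16. Other motifs searched on both strands were TGTTTAC, bound by FOXA factors, which was in 0 member windows and 3.65% of all windows, and ACANNNTGT, an inverted repeat bound by steroid receptors, which was in 2 member windows and 6.85% of all. GGAAGT, bound by ETS factors, was in 4 member windows and 23.8% of all. No 2 of the matches in member windows overlapped. A match is a description of the letters, not evidence of binding.

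Wnt4 was the most abundant ligand per length in ML and in HR-positive LP, at 68.5 and 53.8 CPM per kb, against 2.16 CPM per kb in HR-negative LP. Its levels were 227, 309 and 250 CPM in ML and 171, 254 and 192 CPM in HR-positive LP, against 4.56, 15.9 and 4.22 CPM in HR-negative LP. Every ML and HR-positive LP library was above every HR-negative LP library, while ML and HR-positive LP overlapped. Wnt4 was 24.9-fold higher in HR-positive LP relative to HR-negative LP (log2 fold change 4.61 ± 0.48 (SE), edgeR adjusted p = 5.52e-05). Against HR-negative LP, ML was 31.8-fold higher (log2 4.96 ± 0.49, edgeR adjusted p = 1.11e-05). Without HR-negative LP replicate 2, its highest library there, these log2 values were 5.55 and 5.90. Between ML and HR-positive LP the log2 difference of 0.35 ± 0.41 was not called (edgeR adjusted p = 0.879). Within HR-negative LP, replicate 2 had the highest Wnt4 and also the highest Pgr; the part of the second in the first was not tested.

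Wnt5a, a ligand best known for beta-catenin-independent signalling through ROR receptors, followed the same order. It had 134, 132 and 153 CPM in ML and 95.9, 91 and 104 CPM in HR-positive LP, against 0.646, 3.33 and 3.33 CPM in HR-negative LP. The 3 populations did not overlap, and HR-negative LP was lowest. It was 39.8-fold higher in HR-positive LP relative to HR-negative LP (log2 5.32 ± 0.46, edgeR adjusted p = 1.69e-05) and 57.5-fold higher in ML relative to HR-negative LP (log2 5.85 ± 0.47, edgeR adjusted p = 2.45e-06). ML over HR-positive LP, at 1.44-fold, was not called with all 9 libraries (log2 0.53 ± 0.38, edgeR adjusted p = 0.704). It was called with only the 2 groups in the fit (adjusted p of 0.0101), and also without HR-negative LP replicate 1 (adjusted p of 0.0107).

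Wnt11, another ligand of the beta-catenin-independent branch, had 15.6, 16.7 and 20.9 CPM in ML and 10.4, 12.2 and 17 CPM in HR-positive LP, against 0.101, 0.409 and 0.573 CPM in HR-negative LP. ML and HR-positive LP overlapped, and each of their libraries was above all HR-negative LP libraries. Its log2 fold change was 5.24 ± 0.47 in HR-positive LP over HR-negative LP (edgeR adjusted p = 1.97e-05) and 5.67 ± 0.47 in ML over HR-negative LP (edgeR adjusted p = 3.18e-06). Wnt7b, a ligand that acts in epithelial development, had 103, 110 and 132 CPM in ML and 91.2, 97.8 and 119 CPM in HR-positive LP, against 40.3, 44.9 and 44.2 CPM in HR-negative LP. It was also higher in every ML and HR-positive LP library than in HR-negative LP, but by less, 2.38-fold in HR-positive LP (log2 1.25 ± 0.15, edgeR adjusted p = 0.000121) and 2.67-fold in ML (log2 1.42 ± 0.15, edgeR adjusted p = 1.65e-05). Neither was called between ML and HR-positive LP (edgeR adjusted p = 0.797 for each).

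Wnt5b, the closest relative of Wnt5a, ran the other way. It had 2.48, 0.383 and 1.46 CPM in ML and 98, 85.6 and 71.1 CPM in HR-positive LP, against 305, 271 and 172 CPM in HR-negative LP. The 3 populations were fully apart, with HR-positive LP between ML and HR-negative LP. The log2 fold change was -1.55 ± 0.40 in HR-positive LP over HR-negative LP (edgeR adjusted p = 0.0131), -5.94 ± 0.50 in ML over HR-positive LP (edgeR adjusted p = 1.47e-05) and -7.50 ± 0.53 in ML over HR-negative LP (edgeR adjusted p = 9.91e-07). Without ML replicate 1 the values for ML were -6.54 over HR-positive LP and -8.09 over HR-negative LP. The call between HR-positive LP and HR-negative LP was lost without HR-positive LP replicate 2 or 3 (adjusted p between 0.0523 and 0.0525).

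Wnt6 and Wnt9a, ligands present at low level, were lowest in ML. Wnt6 had 0, 0 and 0 CPM in ML and 0.0858, 0.669 and 0.701 CPM in HR-positive LP, against 0.989, 1.8 and 1 CPM in HR-negative LP. With 0 counts in ML, it was at least 19.3-fold lower in ML relative to HR-positive LP (edgeR adjusted p = 0.0229) and at least 50.3-fold lower than in HR-negative LP (edgeR adjusted p = 0.00196), taking the limit of 3 counts over the 3 ML libraries. Wnt6 reached the filter cutoff in 0 ML, 2 HR-positive LP and 3 HR-negative LP libraries. It was thus tested only through libraries outside ML, which favours a difference from ML. The call between ML and HR-positive LP was lost without ML replicate 1, 2 or 3 or HR-positive LP replicate 2 or 3 and with limma voom (adjusted p between 0.0535 and 0.191). HR-positive LP over HR-negative LP was called for Wnt6 by limma voom alone (adjusted p = 0.0477). Wnt9a had 0.234, 0.298 and 0.0706 CPM in ML and 0.991, 1.26 and 0.975 CPM in HR-positive LP, against 1.68, 4.75 and 0.501 CPM in HR-negative LP, and HR-negative LP spanned the range of HR-positive LP. It was called only in ML over HR-negative LP (log2 -3.52 ± 0.89, edgeR adjusted p = 0.00793), with a log2 value of -2.43 without HR-negative LP replicate 2. Wnt2b had between 0.283 and 1.77 CPM over the 9 libraries and was called in none of the 3 comparisons.

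**Figure D2:**
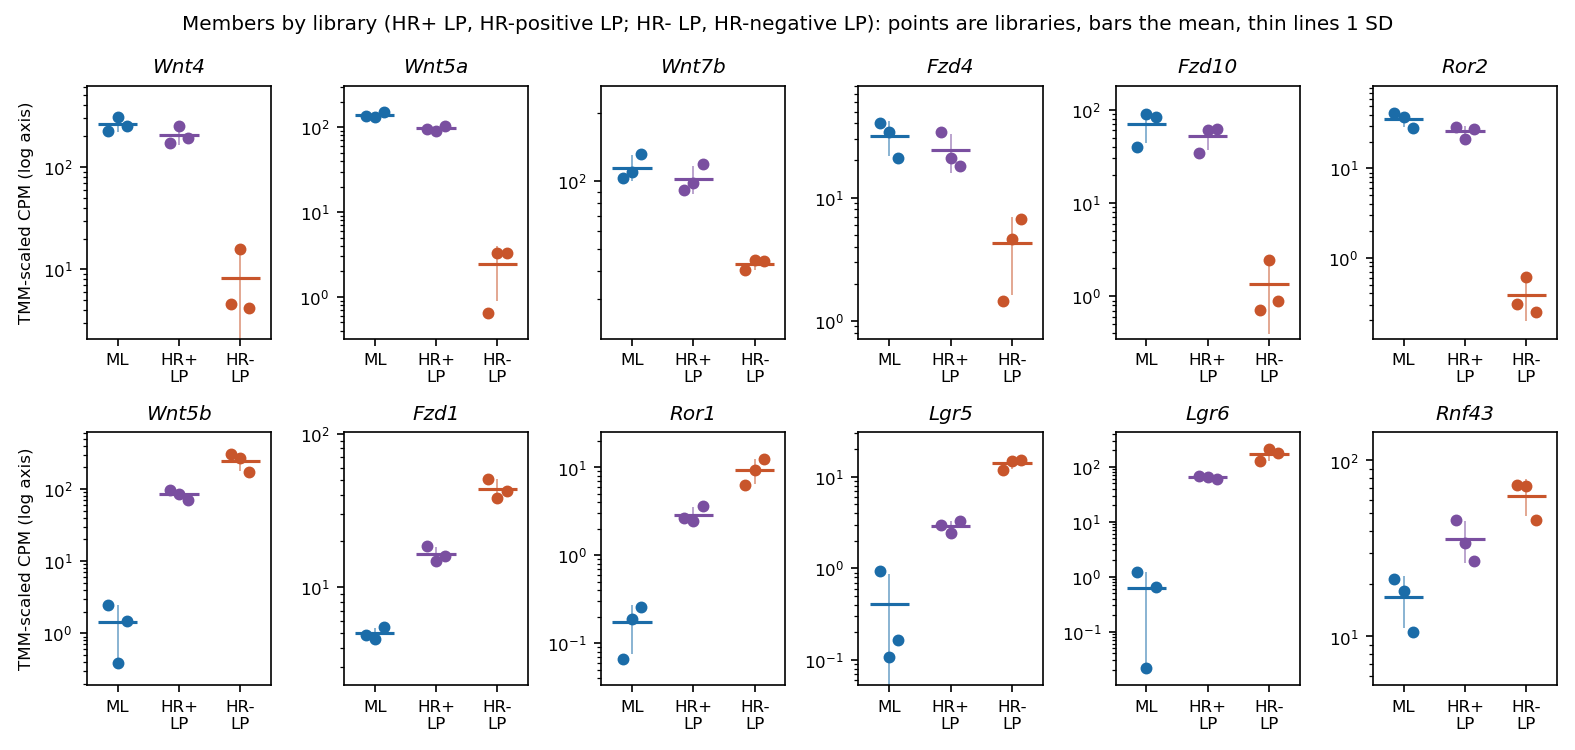
TMM-scaled CPM (log axis, scaled for each gene) of 12 members in each library, with the mean as a bar and 1 SD as a thin line, which leaves the axis where the mean minus the SD is very low. In the upper row ML and HR-positive LP lie together above HR-negative LP, as for Ror2 at means of 35.8 and 26.1 CPM against 0.386 CPM. In the lower row the 3 populations form steps, as for Fzd1 at 4.96, 16.4 and 43.6 CPM, except that HR-positive LP and HR-negative LP overlap in Rnf43.

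The make-up of the ligand family differed between the populations. Wnt4 made up 50.9% of the summed ligand level per kb in ML and 38% in HR-positive LP, against 1.76% in HR-negative LP (means of 3 libraries). Wnt5a made up 23.9% in ML and 15.8% in HR-positive LP, against 0.521% in HR-negative LP. Wnt5b made up 0.474% in ML and 25.6% in HR-positive LP, against 87.4% in HR-negative LP, where no library was below 84.2%. In each HR-positive LP library Wnt4 held at least 33.6%, Wnt5b at least 21.7%, Wnt7b at least 14.6% and Wnt5a at least 13.8%. Shares of one family are tied to each other, so they carry no test of their own.

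**Figure D3:**
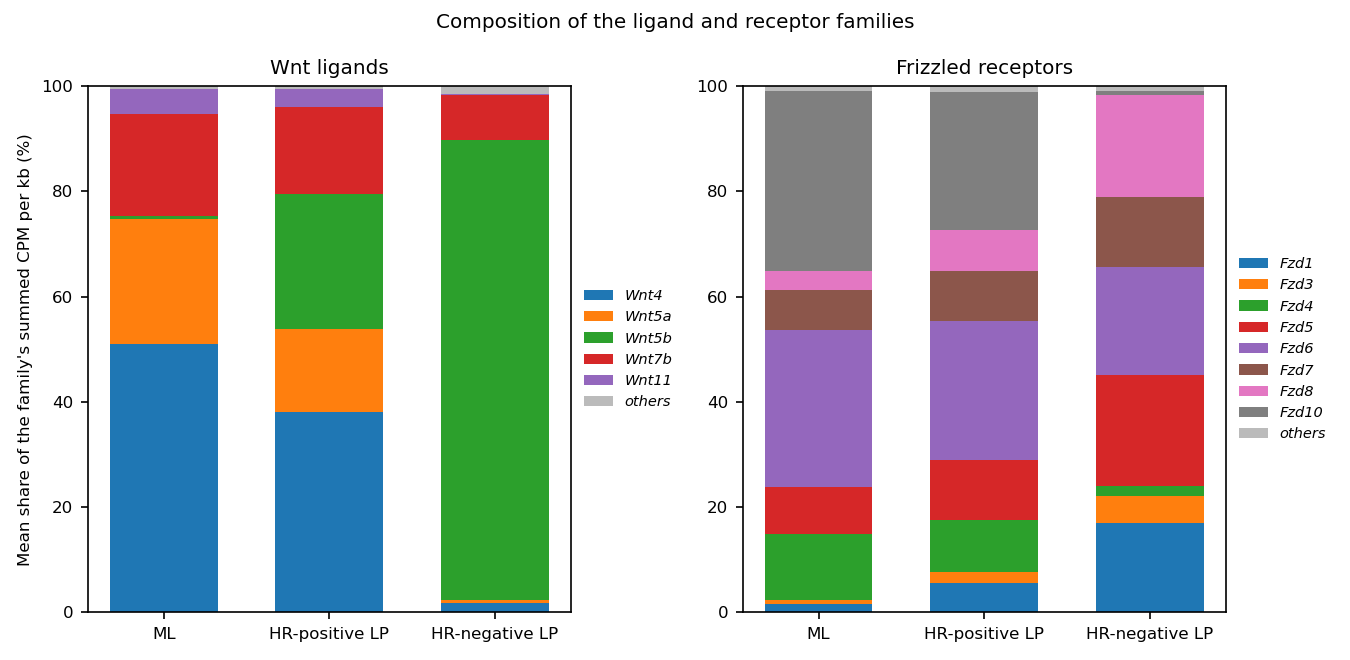
Mean share of each gene in its family's summed level per kb of gene length (%), for Wnt ligands (left) and Frizzled receptors (right), in ML, HR-positive LP and HR-negative LP. Wnt4 and Wnt5a fill most of the ML bar and Wnt5b most of the HR-negative LP bar, at 87.4%. Fzd10 holds 34.2% of the Frizzled level in ML and 0.758% in HR-negative LP.

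Among the Frizzled receptors, Fzd10, Fzd4 and Fzd6 were higher in ML and HR-positive LP. Fzd10 had 39.7, 89.6 and 83.7 CPM in ML and 34.6, 60.1 and 62.8 CPM in HR-positive LP, against 0.706, 2.43 and 0.895 CPM in HR-negative LP. ML and HR-positive LP overlapped, with replicate 1 lowest in each, and HR-negative LP was far below. Fzd10 was 39.1-fold higher in HR-positive LP relative to HR-negative LP (log2 5.20 ± 0.51, edgeR adjusted p = 3.53e-05) and 52.9-fold higher in ML relative to HR-negative LP (log2 5.63 ± 0.52, edgeR adjusted p = 6.33e-06). Without HR-negative LP replicate 2 these log2 values were 6.06 and 6.50. Fzd4, a receptor that also binds the ligand Norrin, had 40.3, 34.2 and 20.9 CPM in ML and 34.3, 21 and 18.2 CPM in HR-positive LP, against 1.43, 4.63 and 6.69 CPM in HR-negative LP. No HR-negative LP library reached the others, and the gene was 5.77-fold higher in HR-positive LP (log2 2.54 ± 0.48, edgeR adjusted p = 0.00251) and 7.48-fold higher in ML (log2 2.92 ± 0.49, edgeR adjusted p = 0.000554). Fzd6, a receptor with a role in planar polarity, had 86.5, 90.5 and 76.9 CPM in ML and 78.9, 75.1 and 65.2 CPM in HR-positive LP, against 56.9, 46.7 and 47 CPM in HR-negative LP. The groups did not overlap with HR-negative LP, but the difference was small, 1.46-fold in HR-positive LP (log2 0.54 ± 0.14, edgeR adjusted p = 0.0125) and 1.69-fold in ML (log2 0.75 ± 0.14, edgeR adjusted p = 0.00105). For HR-positive LP this call was lost without HR-positive LP replicate 1 or 2 (adjusted p between 0.0507 and 0.0576).

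Fzd1 and Fzd8 were lower in all 3 comparisons. Fzd1 had 4.86, 4.57 and 5.46 CPM in ML and 18.5, 14.7 and 15.9 CPM in HR-positive LP, against 50.8, 38.1 and 42 CPM in HR-negative LP. The 3 populations were apart, and the libraries within each differed little. The log2 fold change of Fzd1 was -1.41 ± 0.17 in HR-positive LP over HR-negative LP (edgeR adjusted p = 0.00015), -1.72 ± 0.18 in ML over HR-positive LP (edgeR adjusted p = 5.95e-05) and -3.14 ± 0.18 in ML over HR-negative LP (edgeR adjusted p = 2.73e-07). Fzd8 had 12.1, 6.15 and 6.12 CPM in ML and 19.3, 15.9 and 17.1 CPM in HR-positive LP, against 48.4, 38.8 and 28.7 CPM in HR-negative LP, again without overlap. It changed by log2 -1.15 ± 0.28 (edgeR adjusted p = 0.0102), -1.11 ± 0.28 (edgeR adjusted p = 0.0383) and -2.26 ± 0.29 (edgeR adjusted p = 8.72e-05) in the same comparisons. The call in ML over HR-positive LP was lost without ML replicate 2 or 3, HR-positive LP replicate 1, 2 or 3 or HR-negative LP replicate 2 and with library totals in place of TMM (adjusted p between 0.0615 and 0.185).

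Fzd3, Fzd5 and Fzd7 were each lower in ML relative to HR-negative LP. Fzd3, a planar polarity receptor, had 2.65, 5.68 and 10.2 CPM in ML and 15.6, 16.6 and 20.7 CPM in HR-positive LP, against 24.6, 39.8 and 49.9 CPM in HR-negative LP; no 2 populations overlapped. It was lower in ML relative to HR-negative LP (log2 -2.62 ± 0.42, edgeR adjusted p = 0.000429) and just missed the threshold in HR-positive LP over HR-negative LP (edgeR adjusted p = 0.0561) and in ML over HR-positive LP (edgeR adjusted p = 0.0508). With the replicate number as a block, ML over HR-positive LP was called (log2 -1.67, adjusted p = 0.00248). Over all alternatives it was called there without ML replicate 3 or HR-negative LP replicate 1 or 3, with library totals in place of TMM, with no filter, with DESeq2, with the replicate block and with only the 2 groups compared in the fit (adjusted p between 0.00248 and 0.0498). HR-positive LP over HR-negative LP was called without ML replicate 1 or 3 or HR-negative LP replicate 1. It was also called with DESeq2 size factors, no filter, the stricter filter, DESeq2 and limma voom. The replicate block and a fit of only the 2 groups compared called it too (adjusted p of all these between 0.00907 and 0.0491).

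Fzd5 had 43.9, 43.3 and 38.8 CPM in ML and 48.8, 51.8 and 57.6 CPM in HR-positive LP, against 61, 108 and 86.6 CPM in HR-negative LP. The values of HR-positive LP lay between the others without overlap, and Fzd5 was lower in HR-positive LP (log2 -0.69 ± 0.19, edgeR adjusted p = 0.0173) and in ML (log2 -1.02 ± 0.19, edgeR adjusted p = 0.00114) than in HR-negative LP. The first call was lost without HR-positive LP replicate 1 or 2 or HR-negative LP replicate 2 (adjusted p between 0.0657 and 0.0711). Fzd7, a receptor studied in mammary stem cells, had 31.1, 21.5 and 21 CPM in ML and 37.4, 27.6 and 25.6 CPM in HR-positive LP, against 45.8, 37 and 30.5 CPM in HR-negative LP, with ML and HR-negative LP overlapping. It was called lower in ML relative to HR-negative LP (log2 -0.63 ± 0.22, edgeR adjusted p = 0.0389), and that call was lost without ML replicate 2 or 3, HR-positive LP replicate 2 or HR-negative LP replicate 1 or 2, with library totals in place of TMM and with only the 2 groups compared in the fit (adjusted p between 0.0552 and 0.155). Fzd2 had between 0.164 and 3.62 CPM and was not called.

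Lrp5 and Lrp6, the co-receptors of the beta-catenin branch, were called in none of the 3 comparisons. Lrp5 had 259, 430 and 292 CPM in ML and 269, 392 and 291 CPM in HR-positive LP, against 216, 287 and 227 CPM in HR-negative LP. Lrp6 had 202, 235 and 199 CPM in ML and 230, 221 and 214 CPM in HR-positive LP, against 179, 251 and 216 CPM in HR-negative LP. Populations overlapped in each pair for both genes. The log2 difference of Lrp6 was 0.04 ± 0.15 in HR-positive LP over HR-negative LP and -0.02 ± 0.15 in ML over HR-negative LP, and its sign turned with the scaling. That of Lrp5 was 0.38 ± 0.22 and 0.42 ± 0.22. Ryk, a Wnt receptor with an inactive kinase domain, had between 99.2 and 149 CPM and was not called either. At 63.2 CPM per kb in ML, 61.4 in HR-positive LP and 47.1 in HR-negative LP, Lrp5 had the highest mean level per length of the 5 co-receptors and alternative receptors in each population. With library totals in place of TMM, Lrp5 was called higher in ML relative to HR-negative LP (adjusted p = 0.027). The replicate block called it higher there (adjusted p = 0.0108) and in HR-positive LP over HR-negative LP (adjusted p = 0.0213).

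Ror2 and Ror1, receptor tyrosine kinases that bind WNT5A, were ordered oppositely. Ror2 had 41.8, 37.6 and 28 CPM in ML and 29, 21.4 and 27.8 CPM in HR-positive LP, against 0.303, 0.604 and 0.25 CPM in HR-negative LP. HR-negative LP was lowest by far, and ML and HR-positive LP overlapped. It was 67.6-fold higher in HR-positive LP relative to HR-negative LP (log2 5.94 ± 0.33, edgeR adjusted p = 1.49e-06) and 92.8-fold higher in ML relative to HR-negative LP (log2 6.40 ± 0.34, edgeR adjusted p = 1.37e-07). Ror1 had 0.067, 0.191 and 0.259 CPM in ML and 2.64, 2.44 and 3.61 CPM in HR-positive LP, against 6.4, 9.47 and 12.5 CPM in HR-negative LP. No populations overlapped, and HR-positive LP was in the middle. The log2 fold change of Ror1 was -1.70 ± 0.40 in HR-positive LP over HR-negative LP (edgeR adjusted p = 0.00866), -4.00 ± 0.48 in ML over HR-positive LP (edgeR adjusted p = 0.00021) and -5.71 ± 0.51 in ML over HR-negative LP (edgeR adjusted p = 4.97e-06). Per length, ML had 9.02 CPM per kb of Ror2 and 0.0487 of Ror1, HR-positive LP had 6.57 and 0.819, and HR-negative LP had 0.0972 and 2.67.

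The LGR receptors were all lower in ML relative to HR-positive LP, and lower in HR-positive LP relative to HR-negative LP. Lgr6 had 1.24, 0.0213 and 0.636 CPM in ML and 67.7, 64.8 and 61.3 CPM in HR-positive LP, against 127, 211 and 181 CPM in HR-negative LP. ML was close to absence, and HR-positive LP stood between without overlap. Lgr6 changed by log2 -1.42 ± 0.45 in HR-positive LP over HR-negative LP (edgeR adjusted p = 0.0339), -6.80 ± 0.61 in ML over HR-positive LP (edgeR adjusted p = 2.34e-05) and -8.22 ± 0.64 in ML over HR-negative LP (edgeR adjusted p = 1.92e-06). The first of these calls was lost without ML replicate 3, HR-positive LP replicate 1, 2 or 3 or HR-negative LP replicate 2 or 3 and with DESeq2 (adjusted p between 0.0514 and 0.213). The others were -7.66 and -9.08 without ML replicate 1, -6.14 and -7.58 without ML replicate 2, and -7.99 and -9.38 with limma voom.

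Lgr5, a marker of stem cells in the intestine and other epithelia, had 0.938, 0.106 and 0.165 CPM in ML and 2.95, 2.43 and 3.29 CPM in HR-positive LP, against 11.8, 15 and 15.3 CPM in HR-negative LP. The populations were apart, with log2 changes of -2.28 ± 0.55 in HR-positive LP over HR-negative LP (edgeR adjusted p = 0.00973), -2.94 ± 0.62 in ML over HR-positive LP (edgeR adjusted p = 0.0121) and -5.22 ± 0.66 in ML over HR-negative LP (edgeR adjusted p = 7.33e-05). ML over HR-positive LP was not called without ML replicate 3 (adjusted p = 0.0539). Without ML replicate 1, its highest ML library, ML was at -4.40 over HR-positive LP and -6.68 over HR-negative LP, and with limma voom at -3.59 and -5.85. Lgr4, the most widely expressed of the LGR receptors, had 15.2, 20.6 and 19 CPM in ML and 38, 38.4 and 56.8 CPM in HR-positive LP, against 75.6, 104 and 144 CPM in HR-negative LP. It formed the same steps, with log2 changes of -1.28 ± 0.24, -1.28 ± 0.25 and -2.56 ± 0.26 (edgeR adjusted p = 0.00274, 0.0068 and 1.22e-05). Lgr4 remained at 3.61 CPM per kb in ML, where it made up 90.8% of the summed level of the 7 R-spondins and LGR receptors, against 31.2% in HR-positive LP and 28.5% in HR-negative LP.

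Of the R-spondins, Rspo1 was the only gene tested. It had 0.368, 0.0213 and 0 CPM in ML and 1.4, 2.05 and 0.57 CPM in HR-positive LP, against 4.76, 2.61 and 5.19 CPM in HR-negative LP, with no overlap between populations. It was lower in ML relative to HR-negative LP (log2 -5.14 ± 1.12, edgeR adjusted p = 0.00322), and was not called in HR-positive LP over HR-negative LP (edgeR adjusted p = 0.204) or in ML over HR-positive LP (edgeR adjusted p = 0.0944). ML over HR-positive LP was called without ML replicate 1 and with DESeq2 (adjusted p between 0.00386 and 0.00444), and HR-positive LP over HR-negative LP with limma voom (adjusted p = 0.0247). In ML over HR-negative LP its log2 value was -8.33 without ML replicate 1, which held most of its ML counts, -4.51 without ML replicate 3 and -6.25 with limma voom. Rspo4 had at most 0.149 CPM, and Rspo2 and Rspo3 had no count.

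Of the secreted antagonists, Sfrp1 and Sfrp2 were lower in each of the 3 comparisons. Sfrp2 had 0, 0.234 and 0 CPM in ML and 11.8, 7.36 and 6.47 CPM in HR-positive LP, against 35.9, 21.7 and 16.5 CPM in HR-negative LP. It was close to absence in ML, and HR-positive LP lay below HR-negative LP in every library. Its log2 change was -1.54 ± 0.51 in HR-positive LP over HR-negative LP (edgeR adjusted p = 0.0426), -6.55 ± 0.75 in ML over HR-positive LP (edgeR adjusted p = 0.000144) and -8.08 ± 0.77 in ML over HR-negative LP (edgeR adjusted p = 8.55e-06). The first was lost without HR-positive LP replicate 1, 2 or 3 or HR-negative LP replicate 1 or 2, with library totals in place of TMM and with DESeq2 (adjusted p between 0.0595 and 0.181), and the second with limma voom (adjusted p = 0.0567). Its ML level rested on 11 counts, all in ML replicate 2; without that library ML had 0 counts and the fitted values, -12.08 and -13.63, depend on the prior count. Without ML replicate 3 the values for ML were -5.95 and -7.48, and with limma voom -7.79 and -9.31. Sfrp1 had 0.234, 0.191 and 0.565 CPM in ML and 1.34, 1.6 and 1.86 CPM in HR-positive LP, against 7.39, 8.15 and 4.22 CPM in HR-negative LP, again apart. It changed by log2 -2.04 ± 0.47, -2.26 ± 0.50 and -4.30 ± 0.53 (edgeR adjusted p = 0.0074, 0.0164 and 6.19e-05). The call in ML over HR-positive LP was lost without ML replicate 1 or 2 or HR-positive LP replicate 3 and with limma voom (adjusted p between 0.0583 and 0.163). Without ML replicate 3 the values for ML were -2.91 over HR-positive LP and -4.95 over HR-negative LP.

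Sfrp5 went the other way at a low level. It had 0.402, 0.617 and 1.11 CPM in ML and 0.534, 0.451 and 0.548 CPM in HR-positive LP, against 0.0202, 0.123 and 0 CPM in HR-negative LP and was called higher in ML relative to HR-negative LP (log2 3.64 ± 1.16, edgeR adjusted p = 0.0246). That call was lost without ML replicate 2 or 3, HR-positive LP replicate 1 or 3 or HR-negative LP replicate 1 (adjusted p between 0.0502 and 0.1), and its log2 value was 5.63 without HR-negative LP replicate 2. Sfrp5 reached the filter cutoff in 3 ML, 3 HR-positive LP and 0 HR-negative LP libraries. It was thus tested only through libraries outside HR-negative LP, which favours a difference from HR-negative LP. In HR-positive LP over HR-negative LP it was not called (edgeR adjusted p = 0.0564), but was without HR-negative LP replicate 2, with library totals in place of TMM, with DESeq2 and with limma voom (adjusted p between 0.013 and 0.0477). Dkk3 had between 0.229 and 2.61 CPM and was not called by edgeR; limma voom called it lower in HR-positive LP over HR-negative LP (log2 -2.15, adjusted p = 0.0415).

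Markers of other cell types differed between the populations too. Of 10 fibroblast markers, 8 were called lower in HR-positive LP relative to HR-negative LP, and 1, Dcn, was called higher. In ML over HR-positive LP 1 fibroblast marker, Pdgfra, was called lower and 9 of 10 had a positive log2 fold change, with a median of 0.92. None was called higher by edgeR, and 1 was with the replicate number as a block. Col3a1, the highest of the list in HR-negative LP, had 7.1, 15.3 and 13.9 CPM in ML and 4.71, 2.58 and 10.2 CPM in HR-positive LP, against 25.1, 44.7 and 46.2 CPM in HR-negative LP. The list summed to between 116 and 323 CPM in ML and between 66.7 and 271 CPM in HR-positive LP, against between 89 and 151 CPM in HR-negative LP, most of it Dcn outside HR-negative LP. Pdgfrb, a defining marker, had at most 0.686 CPM in any library. Pdgfra had 0, 1.15 and 0.283 CPM in ML and 4.96, 3.17 and 3.94 CPM in HR-positive LP, against 20, 21.4 and 11.2 CPM in HR-negative LP. Of 10 basal markers 3, Krt14, Krt17 and Tagln, were called lower in HR-positive LP relative to HR-negative LP. In ML over HR-negative LP 4 were lower, the same 3 and Oxtr, and Krt5 was higher; Oxtr was also lower in ML over HR-positive LP. The list summed to between 33.4 and 52.4 CPM in ML and between 38.2 and 57.8 CPM in HR-positive LP, against between 57.9 and 103 CPM in HR-negative LP. Tagln, the highest of them in HR-negative LP, had 10.2, 10.9 and 7.91 CPM in ML and 11.5, 14.4 and 11.8 CPM in HR-positive LP, against 18.3, 27.9 and 20 CPM in HR-negative LP. Krt14 had 3.85, 4.53 and 4.14 CPM in ML and 3.27, 4.28 and 5.13 CPM in HR-positive LP, against 10.8, 21.1 and 11.1 CPM in HR-negative LP, and Krt5 had 6.63, 6.08 and 6.36 CPM in ML and 4.15, 6.74 and 3.41 CPM in HR-positive LP, against 2.44, 3.05 and 1.25 CPM in HR-negative LP. Oxtr reached 23.4 CPM in HR-negative LP, and Trp63 had at most 1.66 CPM in any library. Of 8 immune markers 5 were tested and 2 were lower in HR-positive LP; the list summed to at most 20.1 CPM, and Ptprc had at most 0.537 CPM. The part of these cells in the levels of Wnt5b, Rspo1, Lgr5, Sfrp1, Sfrp2 and the other lower members was not tested.

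Of 8 endothelial markers, 2 were called higher in HR-positive LP and in ML, each over HR-negative LP, like the members that were higher there. That is 25% of the list, against 29.9% and 44.6% of all genes in those comparisons. None of the list was called lower in HR-positive LP over HR-negative LP by edgeR, against 1 by DESeq2 and 1 by limma voom. Eng had 158, 150 and 130 CPM in ML and 119, 119 and 99.3 CPM in HR-positive LP, against 3.59, 9.32 and 3.04 CPM in HR-negative LP, and Vwf was likewise higher. The list summed to between 191 and 233 CPM in ML and between 140 and 182 CPM in HR-positive LP, against between 10.4 and 24.2 CPM in HR-negative LP. The defining endothelial markers Pecam1, Cdh5 and Kdr reached at most 3.83, 1.63 and 0.636 CPM in any library, and none of them was called by edgeR. The mean level in HR-positive LP was 2.69% of that in HR-negative LP for Cldn5, 44.9% for Tek and 61.4% for Esam. It was 62.9% for Kdr, 73.7% for Pecam1 and 117% for Cdh5. Of 5 adipocyte markers only Fabp4 was tested, and the list summed to at most 5.22 CPM.

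The feedback inhibitors are induced by beta-catenin signalling in many tissues. Rnf43 had 21.3, 18.1 and 10.6 CPM in ML and 46.1, 34 and 27 CPM in HR-positive LP, against 72.1, 71.6 and 46 CPM in HR-negative LP. The highest HR-positive LP library reached the lowest HR-negative LP library, and ML was apart. It was lower in HR-positive LP relative to HR-negative LP (log2 -0.83 ± 0.28, edgeR adjusted p = 0.047), in ML relative to HR-positive LP (log2 -1.10 ± 0.29, edgeR adjusted p = 0.0417) and in ML relative to HR-negative LP (log2 -1.93 ± 0.29, edgeR adjusted p = 0.000279). The first call was lost without ML replicate 2, HR-positive LP replicate 2 or 3 or HR-negative LP replicate 1 or 2 and with library totals in place of TMM (adjusted p between 0.0602 and 0.158), and the second without ML replicate 2 or 3, HR-positive LP replicate 1 or 2 or HR-negative LP replicate 2 and with library totals in place of TMM (adjusted p between 0.0602 and 0.184).

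Axin2, the scaffold gene most often used as a readout of the beta-catenin branch, was low everywhere. It had 0.469, 0.277 and 0.33 CPM in ML and 1.44, 0.358 and 0.778 CPM in HR-positive LP, against 1.65, 2.44 and 1.15 CPM in HR-negative LP, and HR-positive LP overlapped both others. It was lower in ML relative to HR-negative LP (log2 -2.29 ± 0.73, edgeR adjusted p = 0.0246); that call was lost without ML replicate 2 or 3 or HR-negative LP replicate 2 (adjusted p between 0.065 and 0.0845). Znrf3, the other ubiquitin ligase gene beside Rnf43, had between 7.37 and 13 CPM and was not called. Per length, the mean level of Rnf43 was 3.87 CPM per kb in ML and 8.28 in HR-positive LP, against 14.7 in HR-negative LP, and that of Axin2 was 0.0841 and 0.201, against 0.41.

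**Figure D4:**
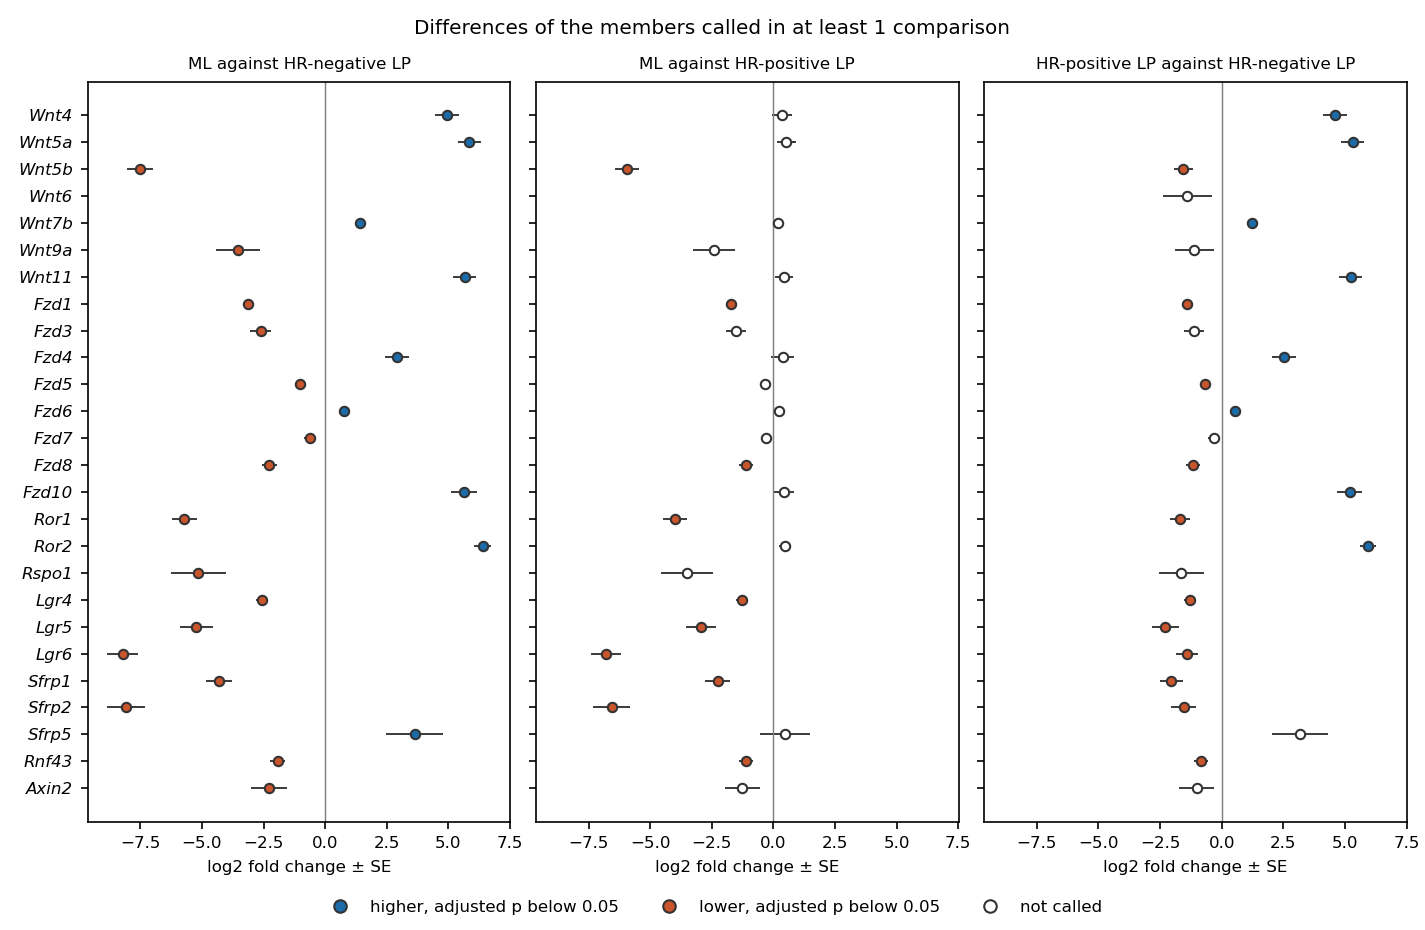
Log2 fold change with its SE for the 26 members called in at least 1 comparison, filled where the edgeR adjusted p was below 0.05. Wnt6 is left out of the 2 comparisons with ML, where it had 0 counts. In ML over HR-positive LP no filled point lies right of 0, and 10 of the 11 lower members are drawn; Lgr6 is farthest left, at -6.80.

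Over the 8 members called higher in HR-positive LP relative to HR-negative LP, the mean level in HR-positive LP was a median of 75.8% of that in ML, with Wnt5a lowest at 69.3% and Wnt7b highest at 89.1%. The same median was 71.1% over the tested hormone-sensing markers. Over the 11 members called lower there, the mean level in HR-positive LP was a median of 37.4% of that in HR-negative LP, with Lgr5 lowest at 20.6% and Fzd5 highest at 62%. The same median over the luminal progenitor markers was 31.8%. The 11 were chosen by this very ratio and the 8 by another, so the medians are not to be set against each other. These values describe means of 3 libraries and carry no test.

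The other 17 members were not tested. Wnt2, Wnt3, Wnt3a, Wnt7a, Rspo2 and Rspo3 had 0 counts in all 9 libraries, which allows up to 0.0251 CPM over the 3 ML libraries, 0.0115 CPM over HR-positive LP and 0.0171 CPM over HR-negative LP; such limits cover counting error only. Wnt1, Wnt9b, Wnt10a, Wnt10b, Wnt16, Fzd9, Rspo4, Sfrp4, Dkk1, Dkk2 and Wif1 had at least 1 count, and the highest value of any of them was 0.87 CPM, for Fzd9 in HR-negative LP replicate 2. Wnt10a and Wnt10b, ligands of the early mammary bud, reached 0.859 and 0.482 CPM in 1 library each at most. Differences among these genes were not tested.

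Genes that act on Wnt proteins outside the 50 members were read from a list of 22, of which 17 were tested. In HR-positive LP over HR-negative LP, 6 were higher (Porcn, Wls, Frzb, Dkkl1, Draxin, Cthrc1) and 3 lower (Sostdc1, Reck, Gpc4), so that 52.9% were called, against 29.9% of all genes. Wls, the carrier that takes Wnt proteins to the cell surface, had 170, 187 and 161 CPM in ML and 140, 148 and 132 CPM in HR-positive LP, against 85.7, 89.3 and 80.9 CPM in HR-negative LP, without overlap. It was higher in HR-positive LP (log2 0.72 ± 0.12, edgeR adjusted p = 0.00111) and in ML (log2 1.02 ± 0.12, edgeR adjusted p = 4.19e-05) than in HR-negative LP. Cthrc1, a secreted protein that favours the planar polarity branch, had 11.5, 7.85 and 7.42 CPM in ML and 8.31, 5.76 and 3.72 CPM in HR-positive LP, against 0.222, 0.0205 and 0.0358 CPM in HR-negative LP, far lower in HR-negative LP (log2 6.04 ± 0.71 for HR-positive LP, edgeR adjusted p = 0.000123). That value was 7.82 without HR-negative LP replicate 1, which held most of its counts there, and 5.33 without HR-negative LP replicate 2. Sostdc1, a secreted inhibitor of Wnt and BMP signals, had 0.0335, 0 and 0.188 CPM in ML and 3.95, 3.63 and 2.21 CPM in HR-positive LP, against 17.7, 12.2 and 4.47 CPM in HR-negative LP. It was lower in ML relative to HR-positive LP (log2 -5.40 ± 0.84, edgeR adjusted p = 0.00153), a call lost with limma voom (adjusted p = 0.152). The value was -4.74 without ML replicate 2, -7.75 without ML replicate 3 and -6.10 with limma voom. It was also lower in HR-positive LP relative to HR-negative LP (log2 -1.81 ± 0.62, edgeR adjusted p = 0.0468), a call lost without ML replicate 1, HR-positive LP replicate 1, 2 or 3 or HR-negative LP replicate 1 or 2 and with library totals in place of TMM (adjusted p between 0.0542 and 0.148). That call was also lost with the replicate block (adjusted p = 0.0552). Gpc4, a cell-surface glypican, had 13.6, 14 and 11 CPM in ML and 33.3, 19.3 and 22.1 CPM in HR-positive LP, against 64.8, 51.2 and 48.1 CPM in HR-negative LP and was lower in all 3 comparisons, with ML over HR-positive LP lost without ML replicate 1, 2 or 3 or HR-positive LP replicate 1 and with limma voom (adjusted p between 0.0606 and 0.104). In ML over HR-negative LP, 6 of the list were higher and 4 lower, 58.8% against 44.6% of all genes.

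Of 32 genes of the beta-catenin pathway core, 31 were tested. Between HR-positive LP and HR-negative LP, 6 were higher and 4 lower (Csnk1a1, Tcf7l1, Tcf7l2, Tle4), 32.3% of the list and near the 29.9% of all genes. Between ML and HR-negative LP, 7 were higher and 8 lower, 48.4% of the list and near the 44.6% of all genes. Tcf7l2, a nuclear partner of beta-catenin, had 19.5, 24.3 and 20.4 CPM in ML and 69.3, 54.2 and 67.3 CPM in HR-positive LP, against 170, 130 and 167 CPM in HR-negative LP. Its 3 populations were apart, with log2 changes of -1.29 ± 0.16, -1.57 ± 0.16 and -2.86 ± 0.17 in HR-positive LP over HR-negative LP, ML over HR-positive LP and ML over HR-negative LP (edgeR adjusted p = 0.000163, 5.93e-05 and 2.69e-07). Tle4, a corepressor of TCF factors, had 20.2, 17.3 and 18.4 CPM in ML and 33.3, 24.2 and 34.2 CPM in HR-positive LP, against 52, 50.9 and 65.8 CPM in HR-negative LP; its call in ML over HR-positive LP (edgeR adjusted p = 0.0289) was lost without ML replicate 1, 2 or 3 or HR-positive LP replicate 1 or 3, with library totals in place of TMM and with limma voom (adjusted p between 0.0561 and 0.155). Fbxw11, which marks beta-catenin for degradation, was higher in HR-positive LP relative to HR-negative LP, with 541, 696 and 455 CPM in ML and 440, 515 and 380 CPM in HR-positive LP, against 122, 135 and 107 CPM in HR-negative LP (log2 1.88 ± 0.19, edgeR adjusted p = 4.17e-05). Amer1, which takes part in beta-catenin destruction, was also higher there (log2 1.02 ± 0.15, edgeR adjusted p = 0.000585).

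Of 15 genes known as beta-catenin targets, 11 were tested, and Lef1 and Sp5 had no count. None was called higher in HR-positive LP or in ML relative to HR-negative LP by edgeR, where 0 and 1 had an unadjusted p below 0.05, and DESeq2 called 0 and 1 and limma voom 1 and 1. In HR-positive LP over HR-negative LP 1 was lower by edgeR, 9.09% of the list against 29.9% of all genes, with 2 lower by DESeq2 and 3 by limma voom. In ML over HR-negative LP 2 were lower by edgeR, 18.2% against 44.6%, and 3 by DESeq2 and by limma voom. The 3 feedback inhibitors, also induced by beta-catenin signalling in many tissues, are members, so these shares leave them out. Of those 3, edgeR called 1 lower in HR-positive LP and 2 lower in ML, each over HR-negative LP. Cd44, a surface receptor for hyaluronan, had 30.6, 26.9 and 37.3 CPM in ML and 93.2, 85.9 and 109 CPM in HR-positive LP, against 228, 272 and 290 CPM in HR-negative LP. It was apart in all 3 populations and lower in each comparison (log2 -1.45 ± 0.16, -1.61 ± 0.16 and -3.06 ± 0.17, edgeR adjusted p = 8.77e-05, 5.99e-05 and 2.07e-07). Myc, a growth regulator, had 78.2, 135 and 175 CPM in ML and 134, 205 and 253 CPM in HR-positive LP, against 256, 380 and 386 CPM in HR-negative LP and was lower in ML relative to HR-negative LP (log2 -1.40 ± 0.31, edgeR adjusted p = 0.00348). In HR-positive LP over HR-negative LP it was not called by edgeR with all libraries and no block, but was without ML replicate 1 or HR-negative LP replicate 1, with DESeq2 and with limma voom (adjusted p between 0.0199 and 0.0429). The replicate block also called Myc lower there (adjusted p = 0.000899). In ML over HR-positive LP it was called only with the replicate block (log2 -0.63, adjusted p = 0.0104). Tcf7 and Nkd2 had at most 5.43 and 1.31 CPM and were not called by edgeR. Tcf7 was called higher by limma voom in HR-positive LP (adjusted p = 0.0121) and in ML (adjusted p = 0.011) and by DESeq2 in ML (adjusted p = 0.0481), each over HR-negative LP. The replicate block also called Tcf7 higher in ML over HR-negative LP (adjusted p = 0.0396). Nkd2 was called lower by limma voom in HR-positive LP (adjusted p = 0.0471) and in ML (adjusted p = 0.0487) and by DESeq2 in ML (adjusted p = 0.0344), each over HR-negative LP.

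All 24 genes of the planar polarity and calcium branches were tested. Of these, 6 were higher and 4 lower (Prickle1, Prickle2, Celsr2, Camk2d) in HR-positive LP over HR-negative LP, 41.7% of the list against 29.9% of all genes. In ML over HR-negative LP 7 were higher and 6 lower, 54.2% against 44.6%. Prickle2, a planar polarity protein, had 0.603, 0.872 and 0.895 CPM in ML and 6.44, 5.88 and 7.16 CPM in HR-positive LP, against 10.3, 18.2 and 22.5 CPM in HR-negative LP. It was lower in HR-positive LP relative to HR-negative LP (log2 -1.39 ± 0.30, edgeR adjusted p = 0.00543) and in ML relative to HR-positive LP (log2 -3.02 ± 0.33, edgeR adjusted p = 0.000108). Prickle1 had 2.58, 1.43 and 1.39 CPM in ML and 7.77, 5.77 and 6.41 CPM in HR-positive LP, against 17.1, 15.5 and 16.4 CPM in HR-negative LP and moved in the same direction in both comparisons (edgeR adjusted p = 0.00457 and 0.00115). Celsr2, a large cadherin of the same branch, had 246, 232 and 215 CPM in ML and 427, 543 and 530 CPM in HR-positive LP, against 557, 1315 and 1188 CPM in HR-negative LP. Its call in HR-positive LP over HR-negative LP was lost without HR-positive LP replicate 1 or HR-negative LP replicate 2 (adjusted p between 0.0539 and 0.0576), and that in ML over HR-positive LP without ML replicate 1, 2 or 3 or HR-positive LP replicate 2 or 3 (adjusted p between 0.0742 and 0.106). Camk2d, a calcium-dependent kinase, was lower in HR-positive LP relative to HR-negative LP (log2 -0.70 ± 0.14, edgeR adjusted p = 0.00296). In ML over HR-positive LP, edgeR, DESeq2 and limma voom each called 0 genes of the 4 lists higher, with 1, 0, 0 and 1 genes at an unadjusted p below 0.05 by edgeR.

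**Figure D5:**
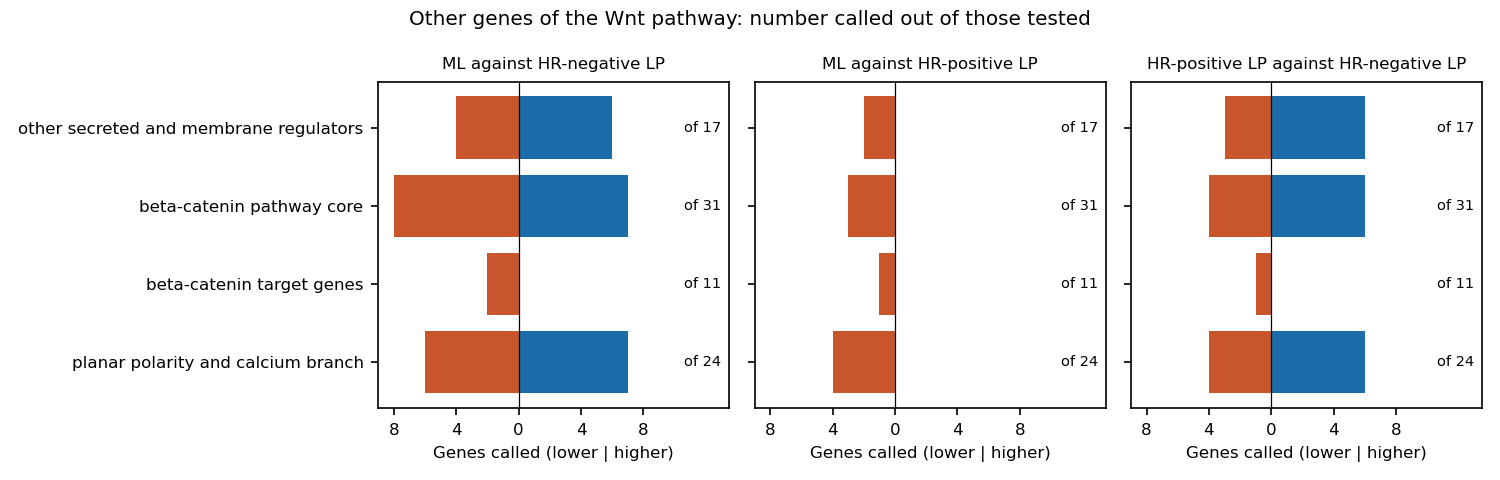
Number of genes called lower (left, orange) and higher (right, blue) in 4 lists of other Wnt pathway genes, with the number tested at the right. ML over HR-positive LP has lower genes in each list and no higher gene, as over all genes, of which 0.0943% were higher. Calls are edgeR's; of the 11 beta-catenin targets 1 is lower in HR-positive LP over HR-negative LP.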

How the data were processed

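Per the labels' protocols, RNA was purified with miRNeasy columns and DNase, and 50 ng or more went into each TruSeq RNA Library Prep Kit v2 library; that kit does not mark strand. The authors deposited raw read counts per gene, tied to featureCounts and mm10 in the submitters' processing notes; the aligner, its annotation and how multi-mapped reads were treated are not given in the sources used here. Exons that overlap on opposite strands were read from GENCODE M21. NCBI gene IDs were matched to RefSeq symbols for 25275 of 27179 genes, 50 of 50 members included.

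Counts of all 9 libraries were fitted with edgeR 4.0.16 (R 4.3.3): filterByExpr by population, TMM, and the quasi-likelihood F test with 3 groups and no covariate, adjusted by Benjamini-Hochberg over 15910 genes and called at 0.05. SE was the absolute log2 fold change over the square root of F. Levels are TMM-scaled CPM, per kb with the length deposited with the counts. Depth per library, 27219103 to 108119756 counts, puts 3 counts at between 0.0286 and 0.107 CPM. DESeq2 1.42.0, limma 3.58.1 (voom), other scalings, filters, a replicate block and leaving out each library were the alternatives; library totals, and all alternatives for the pathway lists, were added after seeing the data. The procedure was tested on simulated data. Figures were drawn with matplotlib 3.10.9.

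Members, lists and tests were chosen with earlier results of these data known. Members called in some comparison with a mean of at least 1 CPM in a population were named with every library's value, the others with their range. Of each pathway list, up to 4 genes with the smallest p were named, and markers where highest of their list. Other genes named in counts of at most 6, Vwf, Pdgfra, Krt5, Oxtr and the defining markers were named after their values were seen.

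The labels number libraries 1 to 3 in each population without saying what a number shares. Deviations of same-numbered ML and HR-positive LP libraries from their population means correlated across genes at 0.183, 0.121 and 0.189, all above 0.1, so from the data alone these numbers may pair those 2 populations; the tests above did not use this, and blocked values stand where they change a call.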

Additional observations from a re-analysis of the deposited data

How the results depend on the processing

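Over 17 alternatives, 41 of the 56 calls on members were kept by every one that gave a value, 15 were lost in some, 14 of them on leaving out a library, and 0 reversed. Of the differences not called, 10 were called in some alternative. Counts moved most in ML over HR-positive LP, where 15 genes were higher, against 30 with library totals, 88 with DESeq2, 50 with limma voom, 71 with the replicate block and 216 with only the 2 groups fitted. On leaving out a library they were between 4, without HR-positive LP replicate 2, and 63, without HR-negative LP replicate 1. There, 1 member was higher with only those groups and 0 to 1 on leaving out a library, and lower members were between 7 and 12. In HR-positive LP over HR-negative LP, lower members were between 6 and 12 on leaving out a library, and lower genes between 1211, without HR-positive LP replicate 2, and 2290, with 1329 without HR-positive LP replicate 1. Genes of the pathway lists that were lower in ML over HR-positive LP were 10, but 6 with limma voom. Those lower in HR-positive LP over HR-negative LP were 12, and between 7, without HR-positive LP replicate 1, and 12 on leaving out a library. The causes of these changes were not tested.

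Only differences that were not called changed sign, and the values here are log2. Fzd2 in ML over HR-positive LP was 0.08, -0.07 with limma voom and between -0.35 and 0.50 on leaving out a library. Lrp6 was -0.01 in HR-positive LP over HR-negative LP with DESeq2 or its size factors and between -0.07 and 0.17 on leaving out a library; in ML over HR-negative LP it was 0.14 with library totals and between -0.14 and 0.11. Ryk was 0.01 in ML over HR-positive LP with DESeq2 or its size factors, 0.03 with library totals and between -0.09 and 0.08 on leaving out a library. It was 0.02 in ML over HR-negative LP with library totals, and between -0.21 and 0.01 in HR-positive LP over HR-negative LP on leaving out a library. The same range in ML over HR-positive LP was -0.20 to 0.22 for Lrp5, 0.00 to 0.75 for Sfrp5, -0.23 to 0.07 for Znrf3 and -0.02 to 0.34 for Tcf7. For Wnt2b it was -0.76 to 0.05 in HR-positive LP over HR-negative LP and -0.21 to 0.61 in ML over HR-negative LP. Library totals moved the median of all genes by 0.11 in HR-positive LP over HR-negative LP and by 0.163 in ML over HR-negative LP, so changes there are relative to that shift.

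Same-numbered libraries of HR-positive LP and HR-negative LP correlated in their deviations at 0.133, 0.0389 and 0.147. Those of ML and HR-negative LP correlated at 0.0526, 0.0254 and 0.0849. Not every value passed the limit of 0.1, yet each library correlated best with its own number. The limit therefore cannot decide whether the numbers pair these populations. The hint of pairing comes from the data and not from the design. With the block there, Fzd3 (adjusted p = 0.0102), Lrp5 (0.0213) and Myc (0.000899) were called in HR-positive LP over HR-negative LP, Lrp5 (0.0108) and Tcf7 (0.0396) in ML over HR-negative LP, and the call on Sostdc1 in HR-positive LP over HR-negative LP was lost (0.0552). Beyond these and the values given with the results, the block changed no call on a member or on a pathway gene named with values. Counts over the lists did change. Of the other secreted and membrane regulators, 5 were higher and 2 lower with the block in HR-positive LP over HR-negative LP, against 6 and 3 without it. In ML over HR-negative LP 5 of that list were higher with the block, against 6. The other pathway lists kept or gained calls. In HR-positive LP over HR-negative LP the planar polarity list had 8 higher and 5 lower with the block, against 6 and 4. In ML over HR-negative LP that list had 9 higher, against 7. The beta-catenin core had 9 higher and 10 lower there, against 7 and 8, and the targets 1 higher and 3 lower, against 0 and 2. With the block 1 basal marker was higher in HR-positive LP over HR-negative LP, against 0 without it.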
